A study of Mus musculus with 2 samples.

Results

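The RNA levels of 8 genes of pluripotent cells and early embryos were compared between mouse embryonic stem (ES) cells and embryonic forebrain. The genes, *Dppa2*, *Dppa3*, *Dppa4*, *Dppa5a*, *Utf1*, *Tcl1*, *L1td1* and *Tex19.1*, were chosen by symbol, and all 8 are among the 29311 genes listed with a value in both samples. They were picked for their known association with ES cells, and with earlier results of these data known. Their direction is therefore described here and not tested. On the deposited values all 8 were at least 4-fold higher in ES cells, and 5 of them rested on fewer than 3 reads in the forebrain.

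The study examined chromatin architecture at the *Hox* loci, and its RNA-seq arm addressed whether ES cells and forebrain differ in background transcription of *Hox* genes. The ES cell sample came from wild-type cells of the E14 strain, a single line grown without feeders in medium with serum and LIF. The forebrain sample came from wild-type B6CBAF1/J embryos at embryonic stage E10.5, and by the methods of the study forebrain RNA was prepared embryo by embryo. There was 1 sample of each kind and hence no replicate, and the samples also differ in genetic background and in the reagent used for RNA extraction. Therefore no test between conditions was possible, and all intervals below are 95% intervals that cover counting error only. In such bulk samples, fewer cells of a type and less RNA per cell cannot be told apart.

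The early embryo restricts a set of genes to the germ line, the cleavage stages and the pluripotent cells of the blastocyst, and most tissues keep these genes silent afterwards, often with methylated promoters. The Dppa name (developmental pluripotency associated) was given to genes with an expression profile like that of *Pou5f1*, and it does not denote a single protein family. *Dppa2* and *Dppa4* encode related DNA-binding proteins that act as a pair on chromatin, *Dppa3* (also known as Stella) encodes a maternal factor that protects DNA methylation in the zygote, and *Dppa5a* encodes an RNA-binding protein with a KH domain. *Utf1* encodes a chromatin-bound regulator, *Tcl1* a coactivator of the AKT kinases, *L1td1* an RNA-binding protein derived from a LINE-1 element, and *Tex19.1* a protein that restrains retrotransposons in the germ line.

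The deposited unit is RPKM, reads per kb of exon and 1000000 reads, although the values are 52.2 times (ES cells) and 49.0 times (forebrain) as large as reads per kb and 1000000 reads on genes. Low values are, for 66.4% of genes in ES cells and 69.2% in the forebrain, within 0.05 of whole multiples of what 1 read contributes, and reads per gene were inferred from that step, which gave 42781283 reads on genes for ES cells and 59783471 for the forebrain. The cell type labels were set beside marker genes, which were chosen with earlier results of these data known and so do not test the labels. All of *Pou5f1*, *Nanog*, *Zfp42*, *Fgf4* and *Esrrb* were at least 4-fold higher in ES cells, whereas *Sox2*, which neural progenitors also express, was not (7182 and 2602 RPKM). All 12 forebrain markers were at least 4-fold higher in the forebrain, including *Emx2* (0.91 and 269 RPKM) and *Lhx2* (0 and 877 RPKM). The forebrain also carried RNA of blood and vessels, since 8 of 8 such markers were higher there, with no marker at 0. Their summed RPKM was 675330 against 328 in ES cells. Most of the forebrain sum came from the globin genes *Hbb-y* (367633) and *Hbb-bh1* (277516). The vessel markers *Cdh5*, *Kdr*, *Tek* and *Tie1* had 308 to 601 RPKM there. The part of these other cells in the differences below was not tested.

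Several of the 8 genes have near-identical copies elsewhere in the genome, which bears on what their values measure, and the sequences are therefore shown first. Copies were sought by aligning each transcript to the NCBIM37 assembly, and a locus was counted when it matched at least 50% of the transcript at 90% identity or more. By this measure *Dppa5a* (chr9:78214859-78215984, minus strand) has 7 copies, *Dppa2* has 4, *Dppa3* and *Dppa4* have 2 each, and *Utf1*, *Tcl1*, *L1td1* and *Tex19.1* have none. To show how close the copies are, coding positions 115 to 194 of *Dppa5a* (counted from 1 at the start codon, in coding direction) are set beside the matching bases of its 5 listed copies, with the bases that differ from *Dppa5a* in capitals. The copies lie at chr9:78093294-78094407 (*Dppa5b*), chr16:94580364-94580975 (*Gm15310*), chr17:78576741-78577339 (*Gm5229*), chr5:29864639-29865233 (*Gm6083*) and chrX:8231591-8232132 (*Gm6798*).
Dppa5a: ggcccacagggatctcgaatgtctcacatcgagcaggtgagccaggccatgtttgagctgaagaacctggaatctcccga
Dppa5b: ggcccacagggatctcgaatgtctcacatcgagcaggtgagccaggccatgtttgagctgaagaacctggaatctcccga
Gm15310: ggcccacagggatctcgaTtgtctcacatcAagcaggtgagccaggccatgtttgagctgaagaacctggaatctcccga
Gm5229: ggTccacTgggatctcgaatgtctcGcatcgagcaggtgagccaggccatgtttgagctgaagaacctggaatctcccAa
Gm6083: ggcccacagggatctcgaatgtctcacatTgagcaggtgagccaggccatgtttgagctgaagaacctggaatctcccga
Gm6798: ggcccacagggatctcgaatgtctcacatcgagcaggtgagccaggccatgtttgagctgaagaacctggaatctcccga
Over these 80 bases *Dppa5b* and *Gm6798* are identical to *Dppa5a*, and *Gm6083*, *Gm15310* and *Gm5229* differ at 1, 2 and 4 positions. A read that falls within a stretch without capitals matches several loci equally well.

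The copy of *Dppa3* (chr6:122576428-122580290, plus strand), named *Gm6269* (chrX:35039886-35040704), is 97.7% identical over 98.1% of the transcript. The other copy of *Dppa3*, at 91.0% identity, lies within the gene *Cacna1d*. The first 80 coding bases of both are shown, again with differences in capitals.
Dppa3: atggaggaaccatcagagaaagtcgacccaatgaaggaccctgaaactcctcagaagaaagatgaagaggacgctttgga
Gm6269: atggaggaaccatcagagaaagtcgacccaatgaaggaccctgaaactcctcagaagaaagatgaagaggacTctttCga
In this stretch the copy differs at 2 positions, both near its end. Of all 50-base windows of the transcripts, 61.2% for *Dppa5a*, 55.1% for *Dppa2*, 47.7% for *Dppa4* and 24.4% for *Dppa3* occur without mismatch elsewhere in the genome. The share was 1.8% for *Tex19.1*, 1.2% for *L1td1* and 0% for *Utf1* and *Tcl1*. With windows of 100 bases it fell to 31.9%, 33.3%, 17.4% and 0% for *Dppa5a*, *Dppa2*, *Dppa4* and *Dppa3*. Both lengths are given because the labels state reads of 100 bases and the methods of the study reads of 50. No annotated gene overlaps any of the 8 loci on either strand.

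Promoter sequences of the 8 genes were examined for description only, since the common direction of these genes goes with how they were chosen. A RefSeq table (GRCm38.p6) held the 250 bases upstream of the start for 4 of them, *Utf1*, *Tcl1*, *L1td1* and *Tex19.1*, and these were located in NCBIM37. Of these, 3 promoters that hold a searched motif are printed in the direction of the gene, up to the annotated start, with the motifs in capitals. In *Utf1* these are GC boxes (GGGCGG), of which the first pair overlaps by a single base. A further GC box, 56 bases upstream of the RefSeq start of *Utf1*, lies past the annotated start and is not printed. In *Tcl1* the capitals mark the same box on the opposite strand, and in *Tex19.1* a TATA-like TATAAA on the opposite strand.
Utf1, chr7:147129505-147129687, plus strand: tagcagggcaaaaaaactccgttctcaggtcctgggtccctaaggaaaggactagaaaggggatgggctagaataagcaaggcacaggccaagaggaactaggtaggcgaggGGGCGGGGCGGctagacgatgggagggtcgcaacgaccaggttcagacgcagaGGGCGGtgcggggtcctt
Tcl1, chr12:106460948-106461197, minus strand: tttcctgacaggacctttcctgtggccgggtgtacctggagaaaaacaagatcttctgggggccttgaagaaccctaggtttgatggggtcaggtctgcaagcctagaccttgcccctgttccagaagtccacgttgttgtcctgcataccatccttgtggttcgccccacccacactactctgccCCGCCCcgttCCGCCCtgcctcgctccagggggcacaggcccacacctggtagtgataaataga
Tex19.1, chr11:121007207-121007456, plus strand: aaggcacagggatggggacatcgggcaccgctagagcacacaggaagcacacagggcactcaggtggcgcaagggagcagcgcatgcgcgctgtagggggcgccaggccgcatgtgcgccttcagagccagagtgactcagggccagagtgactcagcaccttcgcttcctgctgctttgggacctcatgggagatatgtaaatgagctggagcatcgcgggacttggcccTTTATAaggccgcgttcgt
A GC box was found on either strand in 32.7% of 32851 promoters of the table, and TATAAA in 12.4%. The octamer ATTTGCAT bound by POU factors (1.6% of all promoters), the SOX-type AACAAAG (5.0%) and the E-box CACGTG (6.0%) were in none of the 4 windows, which says only that these letters are not there. Motif searches and CpG values cover all 250 bases, also where fewer are printed. The 4 promoters held 7 (*Tcl1*), 11 (*L1td1*), 14 (*Utf1*) and 15 (*Tex19.1*) CpG dinucleotides, beside a median of 6 over all promoters. Their observed to expected CpG ratio was 0.34, 0.57, 0.64 and 0.64, respectively, beside a median of 0.37, so that *Tcl1* was the only one under the median.

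All 8 genes differed in the same direction, and the size of the difference was large beside that of most genes. Each of the 8 was at least 4-fold higher in ES cells on log2(RPKM + 1), where the added 1 compresses differences that involve values near 0. In reads per kb and 1000000 reads on genes, where an added 1 weighs more, 7 of the 8 passed, and *Dppa3* had a log2 difference of 0.68. On log2(RPKM + 1) of the deposited values, 11.3% of all 29311 genes were at least 4-fold higher in ES cells, and 14.4% in the forebrain. The median log2 difference was 8.52 over the 8 genes (range 4.79 to 10.04) and -0.01 over all genes. The latter depends on how the authors scaled the 2 samples, which is not given, and is no independent baseline. Among all genes ranked by this difference, 5 of the 8 were in the first 100 (*Dppa5a*, *Tcl1*, *Dppa4*, *Tex19.1* and *Utf1*) and 7 in the first 293, which is 1% of the list. *Dppa3* was at rank 623, and its log2 difference, across the counting intervals of both samples, reached down to 1.78, under the 4-fold cutoff of 2. Together the 8 genes took 23447 inferred reads in ES cells, or 0.0548% of the reads on genes, and 98.0 in the forebrain, or 0.000164%. Of the forebrain reads all but 14.2 belonged to *L1td1*.

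**Figure D1:**
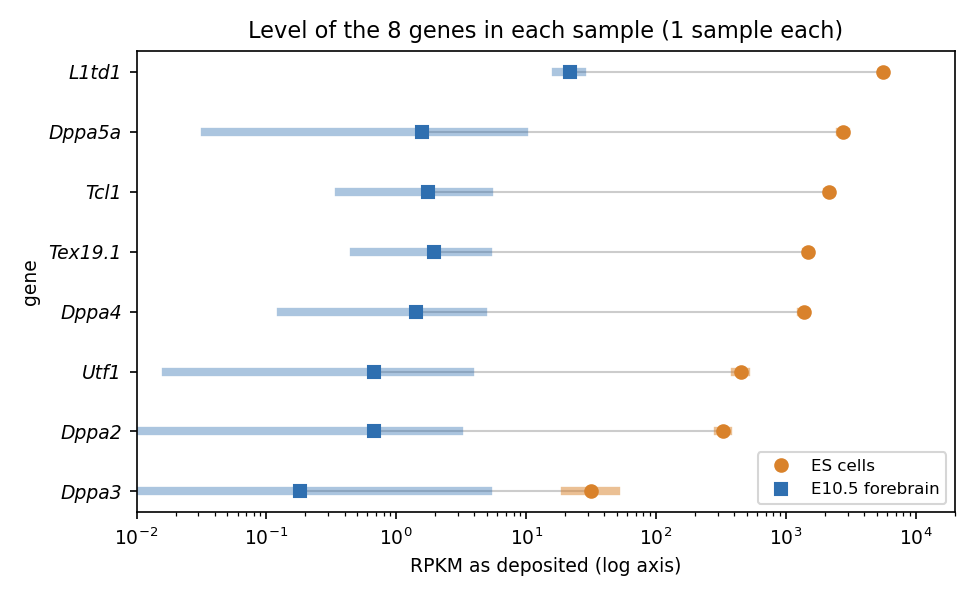
RPKM of the 8 genes as deposited, on a log axis, with 1 sample each of ES cells (circles) and E10.5 forebrain (squares). Shaded bars are exact Poisson 95% intervals of the inferred reads and are cut at the left edge of the plot. In every gene the ES cell value lies above the forebrain interval, and *L1td1* stands apart in the forebrain at 21.6 RPKM.

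On the deposited values, the chromatin and methylation genes were the lower 4 of the 8 in ES cells. With the reads of its copies added, *Dppa4* would be at 2656 RPKM and above *Tcl1* and *Tex19.1*. *Dppa4* (chr16:48283848-48294405, plus strand) had 1369 RPKM in ES cells (interval 1305 to 1436) and 1.42 in the forebrain (0.13 to 4.68), from 1720.2 and 2.66 inferred reads. Its ratio was 964 (interval 292 to 4148). *Dppa2* (chr16:48310590-48319836, plus strand) lies 16.2 kb from *Dppa4* and had 326 RPKM in ES cells (298 to 356) and 0.68 in the forebrain (0.011 to 3.04). Although the proteins act as a pair, the ES cell level of *Dppa4* per kb of exon was thus 4.2 times that of *Dppa2*, with intervals far apart. The ratio of *Dppa2* between the samples was 480 (107 to 3209), and its interval overlapped that of *Dppa4*.

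*Dppa3* was the lowest of the 8 in ES cells. It had 31.6 RPKM in ES cells (interval 19.96 to 48.88), from 23.1 reads, and 0.18 in the forebrain, from 0.20 read. The fraction of a read in the forebrain is below the floor of 3 reads, and the ES cell value was 11.5 times that floor. Across the counting intervals of both samples its log2 difference ran from 1.78 to 5.64. The lower end is under the 4-fold cutoff of 2. In ES cells *Dppa3* was at the 45.6th percentile of all listed genes and thus under their median of 48.9 RPKM, whereas the other 7 genes were between the 72.7th and the 97.5th percentile. With the reads of its copy *Gm6269* added, *Dppa3* would be at 69.5 RPKM and above that median. *Utf1* (chr7:147129688-147131011, plus strand), which limits Polycomb loading at promoters, had 449.7 RPKM in ES cells (409 to 493) and 0.67 in the forebrain (0.017 to 3.72). The forebrain value is that of 1 read, and the ratio of 671 has an interval of 120 to 26669.

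The RNA-binding and retrotransposon-related genes included the highest values. *L1td1* (chr4:98393425-98405171, plus strand) had 5627 RPKM in ES cells (interval 5536 to 5719) and 21.6 in the forebrain (17.1 to 26.8), from 14628 and 83.8 reads. It was the only one of the 8 with more than 5 reads in the forebrain, so that its ratio of 260 was also the most precise (210 to 326). In reads per kb and 1000000 reads on genes, these levels were 108 and 0.442. *Dppa5a* followed with 2735 RPKM in ES cells (2592 to 2884) and 1.59 in the forebrain (0.034 to 9.56), the latter from 1.2 reads. Its ratio of 1720 was the highest of the 8, but the interval of 370.2 to 81656 includes the ratios of *Dppa2*, *Dppa4*, *Utf1*, *Tcl1* and *Tex19.1*. *Tex19.1* (chr11:121007457-121009633, plus strand) had 1480.4 RPKM in ES cells (1420 to 1543) and 1.97 in the forebrain (0.48 to 5.11), from 2269.9 and 4.50 reads, a ratio of 751 (290 to 2086).

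The signalling gene *Tcl1* (chr12:106454967-106460947, minus strand) had 2148 RPKM in ES cells (interval 2063 to 2235) and 1.77 in the forebrain (0.36 to 5.16). These correspond to 2446.9 and 3.01 reads and to a ratio of 1213 (416 to 5900). It has no copy elsewhere, and its value therefore does not depend on how shared reads were counted.

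On the deposited values, the order of the levels in ES cells was *L1td1*, *Dppa5a*, *Tcl1*, *Tex19.1*, *Dppa4*, *Utf1*, *Dppa2* and *Dppa3*, over a 178-fold range. Only *Tex19.1* and *Dppa4*, which differed 1.08-fold, had overlapping counting intervals. The largest step between neighbours was from *Dppa2* to *Dppa3*, 10.3-fold, and the next was from *Dppa4* to *Utf1*, 3.04-fold. With the reads of the listed copies added, *Dppa5a* would be at 12251 RPKM, above *L1td1*, and *Dppa4* at 2656, above *Tcl1* and *Tex19.1*. *Dppa2* would be at 565, above *Utf1*, and *Dppa3* at 69.5, still the lowest. Copies of *Dppa5a*, *Dppa2* and *Dppa3* without a listed gene of their own are not included. The order therefore depends on how shared reads were counted, which the counting intervals do not cover. In the forebrain, *L1td1* was followed by *Tex19.1* with separate intervals, and every other pair of neighbours overlapped, so that no order among these 7 genes could be seen at this depth. The median percentile of the 8 genes among all listed genes was 90.2 in ES cells and 17.8 in the forebrain. The summed RPKM was 14166 in ES cells and 29.9 in the forebrain, a ratio of 474. *L1td1* made up 39.7% of the sum in ES cells and 72.3% in the forebrain, and without it the ratio was 1031.

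**Figure D2:**
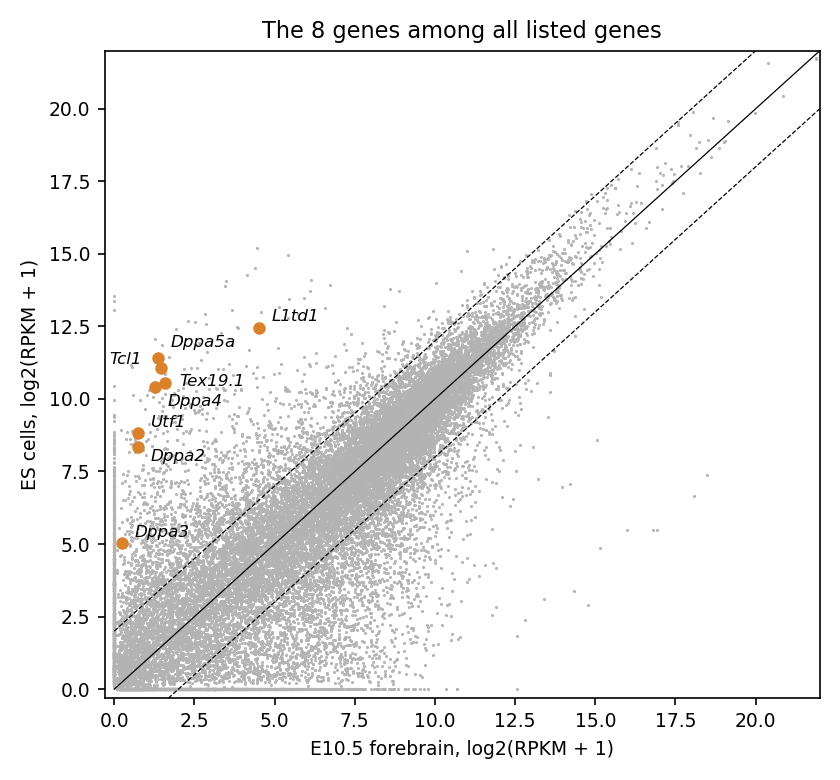
Each grey point is 1 of the 29311 listed genes, with log2(RPKM + 1) in E10.5 forebrain on the x axis and in ES cells on the y axis. The 8 genes (orange) lie above the upper dashed line, which marks a 4-fold difference, and *Dppa3* lies nearest to it with a log2 difference of 4.79.

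The copies of the Dppa genes were listed with values of their own, and these resembled the values of the genes. For *Dppa5a*, the 5 listed copies had 1943 (*Dppa5b*) to 4448 RPKM (*Gm6083*) in ES cells, beside 2735 for *Dppa5a* itself, and 0.44 to 3.21 in the forebrain. The copies of *Dppa4* were at 1214 (*Gm5501*) and 1264 RPKM (*Gm14058*) in ES cells, and those of *Dppa2* at 301 (*Gm9788*) and 211 (*Gm12874*). For *Dppa3*, the copy *Gm6269* exceeded the gene, with 74.6 RPKM against 31.6 in ES cells and 1.87 against 0.18 in the forebrain. With the exception of *Dppa5b* and *Gm5501*, these copies are annotated as pseudogenes.

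The inferred reads of this family were often not whole numbers. In the forebrain, *Dppa5a* and its listed copies had 1.2, 1.2, 1.4, 0.6, 0.2 and 0.2 reads, each of which is a multiple of 0.2. How reads that match several loci were counted is not given in the sources used here. Values of single genes are therefore uncertain for *Dppa2*, *Dppa3*, *Dppa4* and *Dppa5a*. The reads of each gene and its listed copies were summed for this reason, and their ratios are given on the RPKM scale, where 1 read per kb is worth 1.22 in ES cells and 0.819 in the forebrain. Copies without a listed gene of their own, found for *Dppa5a*, *Dppa2* and *Dppa3*, could not be added, so these sums may be incomplete. The *Dppa5a* family had 6211 reads in ES cells and 4.81 in the forebrain, a ratio of 1927 (interval 793 to 5704), and *Dppa5a* accounted for 22.3% of the ES cell reads. The *Dppa4* family had 3337 and 5.16 reads (ratio 964, interval 426 to 3066), and the *Dppa2* family 902 and 3.52 (ratio 382, interval 131 to 1236). The *Dppa3* family had 50.7 and 1.23 reads, with a ratio of 61.5 and a wide interval of 13.0 to 3061. All 4 families thus stayed more than 10-fold higher in ES cells at the lower end of the interval, and *Dppa3* with its copy had the lowest ratio of the 4.

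**Figure D3:**
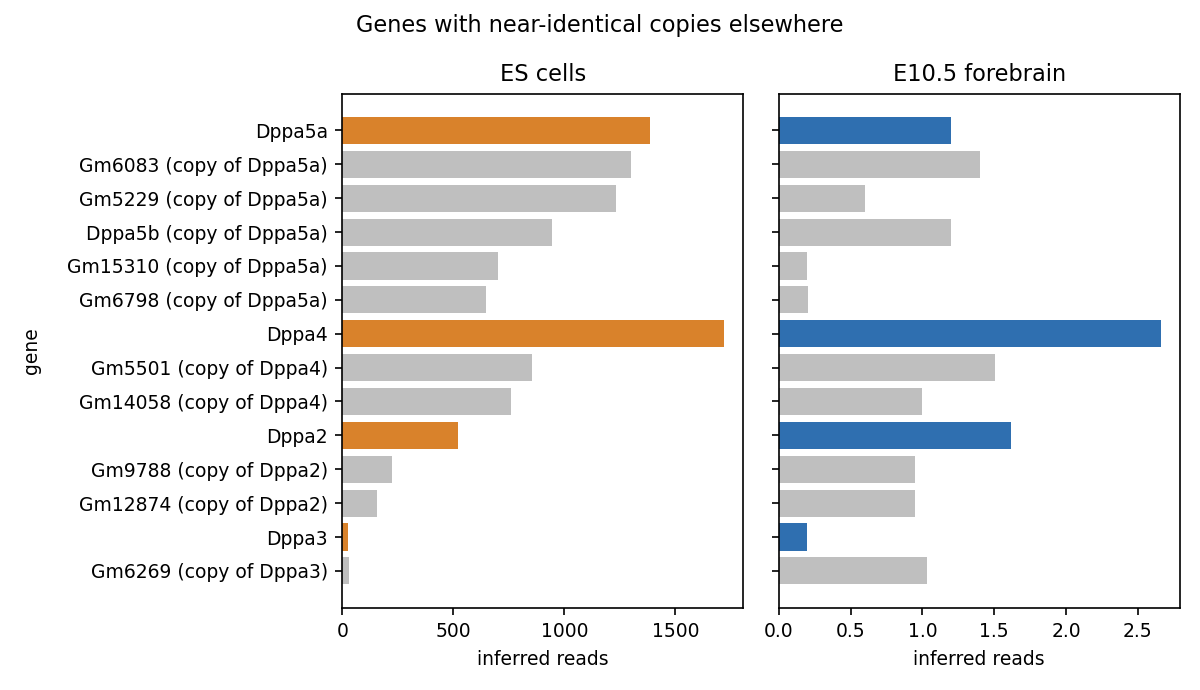
Inferred reads of *Dppa5a*, *Dppa4*, *Dppa2* and *Dppa3* (coloured bars) and of their listed near-identical copies (grey bars) in ES cells and E10.5 forebrain, with separate linear axes for the samples. In ES cells the copies carried from 158 reads (*Gm12874*) to 1301 (*Gm6083*), except *Gm6269*, which had 27.7, and in the forebrain no gene or copy exceeded 2.66 reads.

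Paralogs of the 8 genes with more distant sequences did not all share the pattern. Of 11 such genes 10 were listed, of which 5 were at least 4-fold higher in ES cells and none in the forebrain, with a median log2 difference of 2.18. *Tex19.2*, the paralog of *Tex19.1*, had 111 RPKM in ES cells and 0.40 in the forebrain, the former 13.3 times below *Tex19.1*. The KH-domain relatives of *Dppa5a* were also high, with 734 and 16.7 RPKM for *Ooep* and 1113 and 2.39 for *Khdc3* (listed under an older symbol), both known as parts of a maternal complex of the oocyte. *Khdc1a* and *Khdc1c* passed 4-fold at low levels of 6.46 and 7.85 RPKM in ES cells, and *Khdc1b* did not (1.82 and 2.88). In contrast, *Tcl1b2* to *Tcl1b5*, which are clustered with *Tcl1*, had only 0.59 to 2.79 RPKM in ES cells and were listed at 0 in the forebrain. With the added 1, such low levels cannot pass 4-fold, so only their level and not their ratio can be described.

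Genes whose products are known to work with those of the 8 genes mostly had RNA in both samples. Of 13 partner genes, 8 were within 4-fold, 2 were higher in ES cells and 3 in the forebrain, with a median log2 difference of 0.06. *Uhrf1*, which DPPA3 keeps from chromatin, had 5837 RPKM in ES cells and 3937 in the forebrain, and the maintenance methyltransferase *Dnmt1* had 3272 and 3672. *Ubr2*, an ubiquitin ligase bound by TEX19.1, had 374 and 467. Of the kinases stimulated by TCL1, *Akt2* was within 4-fold (556 and 344), whereas *Akt1* was higher in the forebrain (506 and 2725). *Lin28a*, an RNA-binding protein found with L1TD1, was higher in ES cells (3855 and 345), and its paralog *Lin28b* was higher in the forebrain (102 and 672). *Cdkn2a*, a tumour suppressor locus tied to UTF1, had 55.3 RPKM in ES cells and was listed at 0 in the forebrain.

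Other genes of ES cells were set beside the 8 genes. Of 12 pluripotency factors, 11 were at least 4-fold higher in ES cells, with a median log2 difference of 6.14. *Pou5f1* (11244 and 42.9 RPKM), *Nanog* (4968 and 9.13) and *Esrrb* (2140.4 and 5.01) had log2 differences of 8.0 to 8.94, which is within the range of the 8 genes. *Klf4* (899 and 37.7), *Sall4* (2129 and 239.9) and *Tbx3* (955 and 151) had smaller log2 differences than *Dppa3*. All 14 further genes of ES cells and the early embryo were at least 4-fold higher in ES cells (median 7.83), with *Dnmt3l* (6647 and 3.97), *Tdgf1* (6432 and 4.72) and *Tdh* (7882 and 6.11) above *Dppa5a*. These lists were also chosen for ES cells, and their counts are descriptions.

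Genes of the transient state in which rare ES cells resemble the embryo at the stage after the first cleavage had low values. The highest was *Zfp352*, with 8.74 RPKM in ES cells and 5.63 in the forebrain. *Zscan4c*, *Zscan4d* and *Zscan4f* had 2.06 to 2.76 RPKM in ES cells and were listed at 0 in the forebrain, and none of the 4 listed genes passed 4-fold. Markers of primordial germ cells, in which *Dppa3* is also known to be active, had a summed RPKM of 2849 in ES cells and 681 in the forebrain, with no marker at 0. Of the 8 markers, 3 were at least 4-fold higher in ES cells, namely *Stk31* (1333 and 3.42), *Dazl* (193 and 2.31) and *Ddx4* (159 and 13.7). *Prdm1*, *Tfap2c*, *Dnd1*, *Nanos3* and *Kit* were within 4-fold, with 37.0 to 416 RPKM in ES cells. Whether any of the RNA of the 8 genes came from cells in such states was not tested.

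**Figure D4:**
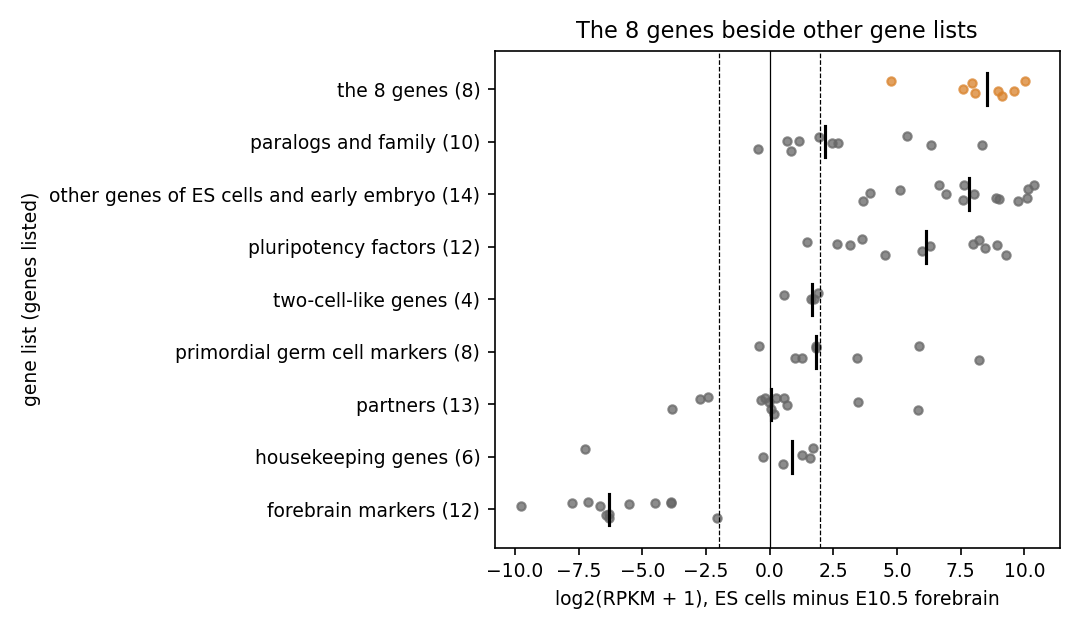
Difference in log2(RPKM + 1), ES cells minus E10.5 forebrain, for the 8 genes (orange) and 8 other gene lists (grey), 1 point per gene, with the median as a black bar and dashed lines at a 4-fold difference. The 8 genes (median 8.52) and the other genes of ES cells (median 7.83) lie to the right, the partners (median 0.06) around 0 and the forebrain markers (median -6.29) to the left.

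The 8 genes lie at 7 places on 7 chromosomes, since only *Dppa2* and *Dppa4* are adjacent, and their neighbourhoods differed. Of 39 other protein-coding genes within 100 kb, 10 were at least 4-fold higher in ES cells, 2 in the forebrain and 27 in neither, with a median log2 difference of 0.83. Of all listed genes 11.3% and 14.4% passed in these directions, and of protein-coding genes 8.93% passed in the direction of ES cells. Around *Dppa3*, the gene with the lowest level, 4 of 6 neighbours were higher in ES cells. These were the TGF-beta family ligand *Gdf3* (2094 and 3.47 RPKM, at a distance of 16.3 kb), *Nanog* (77.2 kb), the glucose transporter gene *Slc2a3* (13403 and 469) and, at a low level, *Mfap5* (25.0 and 1.48). By contrast, *Apobec1* was within 4-fold (49.3 and 28.3). The level of *Dppa3* in ES cells was thus 66.3 times below that of *Gdf3*, 157 times below that of *Nanog* and 424 times below that of *Slc2a3*.

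Near *Dppa5a*, 4 of 12 neighbours were at least 4-fold higher in ES cells. *Ooep*, at a distance of 7.93 kb, was the highest of these, followed by *Ddx43* (95.4 and 7.79 RPKM), which encodes an RNA helicase, and by *4930542C12Rik* and *Gm10639*, which had 11.2 and 3.07 RPKM in ES cells. *Tex19.1* had *Tex19.2* as the only one of 7 neighbours past 4-fold, at a distance of 27.5 kb. *Kndc1*, 2.25 kb from *Utf1*, had 32.3 RPKM in ES cells and 1.80 in the forebrain, while the next gene on that side, *Gpr123*, was listed at 0 in ES cells and had 6.54 in the forebrain. None of the 4 neighbours of *Tcl1* and none of the 3 neighbours of *L1td1* was at least 4-fold higher in ES cells. Those of *Tcl1* are *Tcl1b2* to *Tcl1b5*, whose levels are too low to pass. *Kank4*, 16.4 kb from *L1td1*, was higher in the forebrain (74.5 and 370.3). The only other coding gene near *Dppa2* and *Dppa4*, *Gm7204*, was within 4-fold at a high level in both samples (26687 and 11023).

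**Figure D5:**
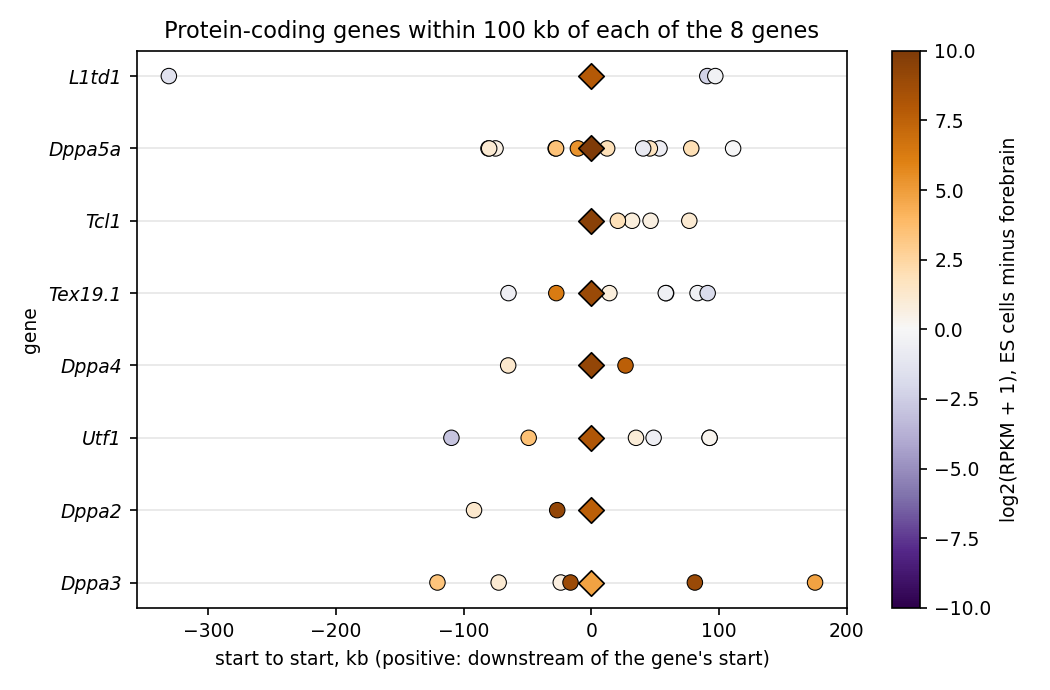
Protein-coding genes within 100 kb of each of the 8 genes, placed by the distance between start sites in kb along the direction of transcription and coloured by the difference in log2(RPKM + 1), ES cells minus E10.5 forebrain (orange higher in ES cells, purple higher in forebrain). Diamonds mark the 8 genes and circles their neighbours, and long neighbours can start beyond 100 kb. The neighbours of *Dppa3* include *Nanog* and *Gdf3* with log2 differences of 8.94 and 8.87, whereas those of *L1td1* are all below 0.

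The genes most like the group as a whole were found as those nearest to its median level in both samples, by Euclidean distance on log2(RPKM + 1). With only 2 samples this measures nothing beyond similar levels. The nearest 5 were *Rbmxl2* (1541 RPKM in ES cells and 1.39 in the forebrain), *Fgf4* (1476 and 1.89), *Gm5501* (1214 and 1.43), which is the copy of *Dppa4* named above, *Zscan10* (1156 and 2.01) and *Triml1* (1069 and 1.33). Of these, *Fgf4* encodes a growth factor secreted by the inner cell mass, and *Zscan10* a zinc finger factor of ES cells.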

How the data were processed

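RNA was measured in 1 sample of ES cells and 1 sample of E10.5 forebrain. Total RNA without rRNAs served for stranded libraries, which were read from a single end. Alignment by the authors was to the NCBIM37 (mm9) assembly in HTSstation, and the authors deposited RPKM values per gene. The submitters' processing notes name Bowtie 0.12.7. The scaling, the treatment of reads with several matches and the use of strand in counting are not given in the sources used here.

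The 8 genes and all gene lists were chosen with earlier results of these data known. The genes named are the 8 genes, those of the lists, the listed copies, protein-coding neighbours within 100 kb and the 5 genes most alike in level. List symbols were matched by name or, for 3 genes, by an older symbol.

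RPKM values were used without further normalization. The values of 1 read per kb, 1.22 in ES cells and 0.819 in the forebrain, are close to reciprocals of each other. Whether the authors had scaled the 2 samples to each other is not given and was not tested. Reads were inferred from the step of 1 read, which was estimated from genes whose exons cover at most 2500 bp. In ES cells 66.4% of 5219 low values and in the forebrain 69.2% of 4974 lay within 0.05 of whole reads. In simulated data 3 of 3 known steps were recovered. Fewer genes had fractional reads there than the values here show, and in other fractions than those of the *Dppa5a* family. Differences were taken on log2(RPKM + 1). Intervals of levels are exact Poisson, those of ratios exact Clopper-Pearson on rounded reads, and the floor is 3 reads. Copies were sought with blastn 2.17.0. Python 3.11.15, pandas 2.3.3, scipy 1.17.1, pysam 0.24.0 and samtools 1.23.1 were used. Alternatives covered pseudocounts, scaling, the genes ranked and the handling of copies, and no test between the samples was made. Some genes of the lists and neighbourhoods are not reported here.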

Additional observations from a re-analysis of the deposited data

How the results depend on the processing

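Of 44 alternative log2 differences of single genes, 26 stayed within the counting interval, 18 did not and 0 changed direction. A changed pseudocount cannot reverse a direction, and scalings of this size could not reverse differences this large. The count of 0 therefore carries little weight. The median log2 difference of the 8 genes was 8.52 as reported, 7.73 with a pseudocount of 5 and 4.77 in reads per kb and 1000000 reads on genes, where a pseudocount of 1 weighs more because the values are about 50 times smaller. In that unit 7 of the 8 genes were at least 4-fold higher in ES cells and *Dppa3*, with a log2 difference of 0.68, was not. The ratio of summed RPKM was 1031 without *L1td1*, an alternative added after seeing the data, as were the floor of 3 reads in the forebrain (median 8.46) and the sums over copies. Scaling by the column sum shifted the median over all genes by -0.25. The forebrain values of the 8 genes other than *L1td1* rest on fewer than 5 reads, and there is no replicate, so neither differences among these genes in the forebrain nor variation between samples could be assessed.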

Other observations

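Markers of the extraembryonic lineages showed no common direction. Of 8 such genes, 3 were at least 4-fold higher in the forebrain, 1 in ES cells and 4 in neither, with a summed RPKM of 374 in ES cells and 517 in the forebrain. The gene that was higher in ES cells, *Cdx2*, a factor of the trophoblast and of posterior tissues, had 272 RPKM from 503 reads and was listed at 0 in the forebrain. Other trophoblast markers did not share this, with 90.1 and 234 RPKM for *Eomes* and 2.08 and 2.79 for *Elf5*. The endoderm markers *Gata4*, *Gata6*, *Sox17*, *Sox7* and *Dab2* were at 1.11 to 3.12 RPKM in ES cells.

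Of 6 housekeeping genes, 5 were within 4-fold and *Hprt* was not. *Hprt*, the purine salvage gene on the X chromosome, had 6.63 RPKM from 7 reads in ES cells and 1161 RPKM from 1826 reads in the forebrain.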
